A study of Mus musculus with 2 samples.

Results

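The Mir130 and Mir301 family comprised 4 microRNA genes, Mir130a, Mir130b, Mir301 and Mir301b, chosen by their symbols among the 1973 gene entries measured in newborn mouse liver. The material was total RNA of 2 livers, 1 per pup, from B6NCrl mice on postnatal day 0, and inserts below 30 bases were sequenced. Pup 1 gave replicate 1 and pup 2 gave replicate 2. Both were littermates of 1 female, sex was not collected, and no treatment, second genotype or other age was part of the design. All values therefore describe 1 group, and differences between the pups are differences between 2 single libraries.

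MicroRNAs of this family are cut from short hairpin transcripts, loaded into Argonaute proteins and guided to messenger RNAs mainly by the seed, bases 2 to 8 of the mature strand. The family is known for repression of the nuclear receptor gene Pparg and, in endothelial cells, of antiangiogenic homeobox genes. Members have also been studied in blood progenitors and in liver disease, and the newborn liver is still a site of blood formation.

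The mature 3p strands are shown first because the shared seed defines the family. Bases run 5′ to 3′, capitals mark bases 2 to 8, and the sequences are from RefSeq on build GRCm38.p6, the assembly also called mm10. RefSeq gave hairpins for 4 of 4 genes and a 3p strand for 3 of them. The strand miR-301b-3p is named only.
miR-130a-3p: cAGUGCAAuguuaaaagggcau
miR-130b-3p: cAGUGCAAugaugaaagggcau
miR-301a-3p: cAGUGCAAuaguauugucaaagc

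The 3p strands of Mir130a and Mir130b were identical at 20 of 22 positions. Counted from 1 at the 5′ end of miR-130a-3p, they differed by U11A and A13G. The product of Mir301 had the same seed and the same first 9 bases as both, but matched miR-130a-3p at 12 of 22 positions and miR-130b-3p at 11 of 22. Downstream of the seed the Mir130 strands thus formed a close pair, and the Mir301 strand stood apart from them.

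The 5p strands, cut from the other side of each hairpin, are shown because their seeds divide the genes in a different way.
miR-130a-5p: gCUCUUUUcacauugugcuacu
miR-130b-5p: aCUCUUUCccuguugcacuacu
miR-301a-5p: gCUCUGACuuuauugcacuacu
miR-301b-5p: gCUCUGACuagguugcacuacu

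The 5p strands of Mir301 and Mir301b had the same seed and were identical at 19 of 22 positions, differing by U10A, U11G and A12G. Those of Mir130a and Mir130b matched at 15 of 22 positions and differed inside the seed by U8C. The 4 genes therefore carried 3 different 5p seeds. The deposited counts cover whole hairpins, so the levels below do not say how much of each strand was present.

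The hairpins are shown because each count is assigned to 1 of them, and capitals mark the letters AGUGCAA, found once in each.
Mir130a: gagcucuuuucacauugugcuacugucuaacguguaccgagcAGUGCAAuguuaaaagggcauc
Mir130b: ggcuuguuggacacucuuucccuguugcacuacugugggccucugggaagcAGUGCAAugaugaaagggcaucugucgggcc
Mir301: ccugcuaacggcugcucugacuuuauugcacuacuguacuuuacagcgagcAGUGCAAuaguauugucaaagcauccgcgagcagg
Mir301b: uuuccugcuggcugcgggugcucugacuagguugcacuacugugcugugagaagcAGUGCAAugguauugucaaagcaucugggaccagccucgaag

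The genes lie at 3 places in the mm10 genome. Mir130a (ENSMUSG00000065484.1) is at chr2:84741115-84741178 on the minus strand, outside any other annotated gene, 990 bases from Gm19426 and 2459 bases from Ypel4. Mir301 (ENSMUSG00000065589.1) is at chr11:87113004-87113089 on the plus strand, in an intron of Ska2, which encodes a spindle and kinetochore protein and is read from the same strand. Mir130b (ENSMUSG00000065572.1, chr16:17124061-17124142) and Mir301b (ENSMUSG00000076288.1, chr16:17124400-17124496) lie 257 bases apart on the minus strand, both in an intron of the protein-coding gene 2610318N02Rik. They were the only family genes with another microRNA gene within 10 kb.

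The hairpins measured 64 bases for Mir130a, 82 for Mir130b, 86 for Mir301 and 97 for Mir301b. Their GC contents were 45.3%, 56.1%, 48.8% and 53.6% in the same order. Folding with RNAfold gave minimum free energies of -22.1 kcal/mol for Mir130a, -30.1 for Mir130b, -37 for Mir301 and -39.1 for Mir301b. The 7 seed letters were all base-paired in each predicted fold.

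The deposited tables give reads that map to several loci as 1 total, apart from the gene entries, so near-identical copies could lower a count. Against the 2200 other annotated microRNA hairpins, on both strands, the longest exact run was 17 bases for Mir130a, shared with Mir6389. It was 16 bases for Mir130b, shared with Mir6368, and 16 bases between Mir301 and Mir301b. The 7 mature strands listed by RefSeq for the family each occurred, in full, in 1 annotated gene only. None of the 4 genes shared an exact run of 20 bases with another microRNA locus. These searches asked for exact runs only, so a read with a mismatch could still fit several loci. The strands miR-130a-3p and miR-130b-3p, for example, differ at 2 of 22 positions. Downstream of the marked letters the hairpins of Mir301 and Mir301b are also nearly alike. Reads from elsewhere in the genome were not searched.

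All 4 family genes were found at 10 or more counts in both pups, against 312 of the 1973 entries. Levels are counts on the strand of the gene per 1000000 such counts in the library (CPM). The library totals were 3422622 counts in replicate 1 and 4538427 in replicate 2, so a gene at 0 could still have had up to 0.877 and 0.661 CPM. Intervals are exact Clopper-Pearson intervals at 95%, which cover counting error only and take each read as independent. PCR copies of a read are not independent molecules, so the intervals can be too narrow even for counting error. In a whole liver, fewer cells of a type and less RNA per cell cannot be told apart. Mir122, the defining hepatocyte microRNA, took 34.2% and 35.5% of the counts in these liver libraries.

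Mir130a was the dominant gene of the family. It had 42970 counts in replicate 1 and 48652 in replicate 2. These gave 12555 CPM (12437 to 12673) and 10720 CPM (10626 to 10815), a mean of 11637 ± 1297 CPM (SD, n = 2). Mir130a ranked 16 and 18 among the entries of the 2 libraries. Reads that map to several loci, 25.2% of reads in replicate 1 and 24.7% in replicate 2, are in no gene entry. Ranks and shares of the family leave those reads out, so microRNAs with copies could stand higher than ranked here. Replicate 1 was the higher library, and the intervals did not overlap.

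Mir130b came next, with 4992 and 5907 counts. Its levels were 1459 CPM (1418 to 1500) and 1302 CPM (1269 to 1335), a mean of 1380 ± 111 CPM, at ranks 68 and 72. Replicate 1 was again higher, without overlap of the intervals.

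Mir301, the intronic gene in Ska2, had 1763 and 2014 counts. These were 515 CPM (491 to 540) and 444 CPM (425 to 464), a mean of 479 ± 50.4 CPM, at ranks 101 and 112. The intervals of the pups did not overlap, and replicate 1 was higher here too.

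Mir301b was the weakest member, with 74 and 84 counts. Its levels of 21.6 CPM (17.0 to 27.1) and 18.5 CPM (14.8 to 22.9) gave a mean of 20.1 ± 2.20 CPM, at ranks 231 and 236. Its intervals overlapped between the pups. Both values were far above the limit for a count of 0.

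**Figure D1:**
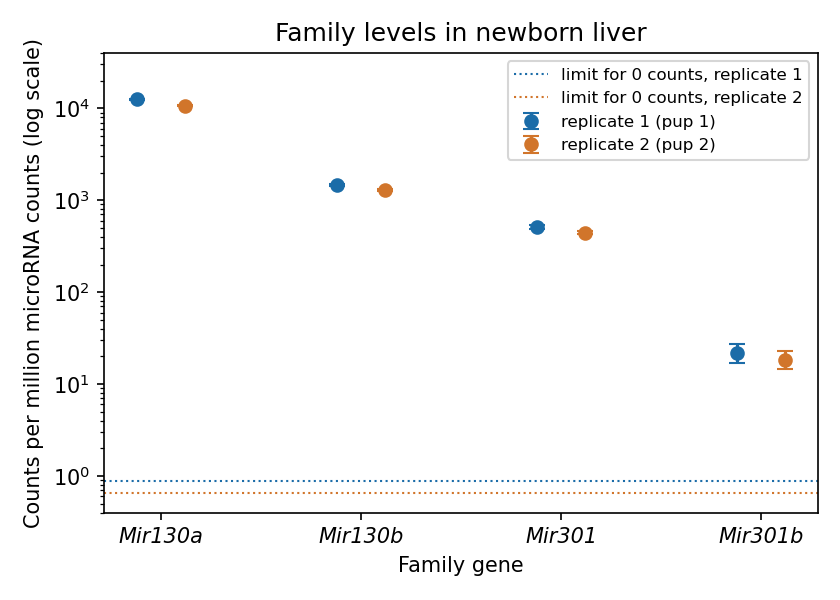
Level of each family gene in CPM (log axis), 1 point per pup with its exact 95% counting interval, and dotted lines at the level that a count of 0 allows in each library. Mir130a sits near 12555 and 10720 CPM, Mir130b near 1459 and 1302, Mir301 near 515 and 444, and Mir301b near 21.6 and 18.5, in the same order in both pups.

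The order Mir130a, Mir130b, Mir301, Mir301b was the same in both pups, and each step was far larger than the spread between them. Mir130a stood 8.61 times above Mir130b in replicate 1 and 8.24 times in replicate 2, a mean of 8.42 ± 0.263. Mir130b stood 2.83 and 2.93 times above Mir301, a mean of 2.88 ± 0.0717. Mir301 stood 23.8 and 24.0 times above Mir301b, a mean of 23.9 ± 0.107. With n = 2, the smallest two-sided p of an exact sign-flip permutation is 0.5, so the order rests on these sizes. Differences in ligation and capture between sequences were not corrected.

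Within the family, Mir130a supplied 86.3% of the counts in replicate 1 (86.0 to 86.6) and 85.9% in replicate 2 (85.6 to 86.2). Mir130b supplied 10.02% and 10.43%, Mir301 3.54% and 3.55%, and Mir301b 0.149% and 0.148%. The makeup was thus close in the 2 livers. Fisher's exact test, two-sided, compared the ratio of each of the 6 gene pairs between the 2 libraries, and 0 of 6 passed after Benjamini-Hochberg adjustment. The lowest adjusted p was 0.183, for Mir130a to Mir130b, the 1 pair with an unadjusted p under 0.05 (0.0306). That ratio had intervals of 8.36 to 8.87 and 8.02 to 8.46, so a small shift between the pups is within what these counts allow.

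Other genes with the same seed in RefSeq were Mir130c, Mir6341, Mir6389 and Mir721. Mir130c, Mir6341 and Mir6389 were at 0 counts in both pups, for which counting error alone allows up to 0.877 and 0.661 CPM. Reads that map to several loci are not in these counts, so a 0 does not by itself show absence. Mir721 was not analysed here. The mature strand of Mir6389 is shown because it shares the longest run with Mir130a.
miR-6389: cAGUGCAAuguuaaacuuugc

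The neighbours Mir130b and Mir301b were far apart in level despite their common locus. Their counts gave a ratio of 67.5 (53.6 to 86.1) in replicate 1 and 70.3 (56.7 to 88.3) in replicate 2, a mean of 68.9 ± 2.02. The intervals overlapped, and the ratio differed between the pups by 0.06 on the log2 scale. For comparison, all pairs of consecutive microRNA genes on the same strand with a gap of at most 10 kb and 10 or more counts in both pups were taken, 91 in all. Their median difference in level was 5.65-fold. The Mir130b and Mir301b pair ranked 9 by size, with 8 of 91 pairs, or 8.79%, further apart. Among the 42 pairs with a gap of at most 300 bases, this pair included, 5 were further apart. Pairs with a gene below 10 counts in either pup are missing from this ranking, and some of them could be further apart too. Of the 8 ranked pairs further apart, 6 held a gene that shares 20 bases with another microRNA locus. In the 59 pairs without such genes, a restriction chosen after seeing the data, 2 were further apart. They were Mir341 with Mir1188 and Mir19a with Mir20a. These values are a description, and pairs within 1 cluster are not independent of each other.

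**Figure D2:**
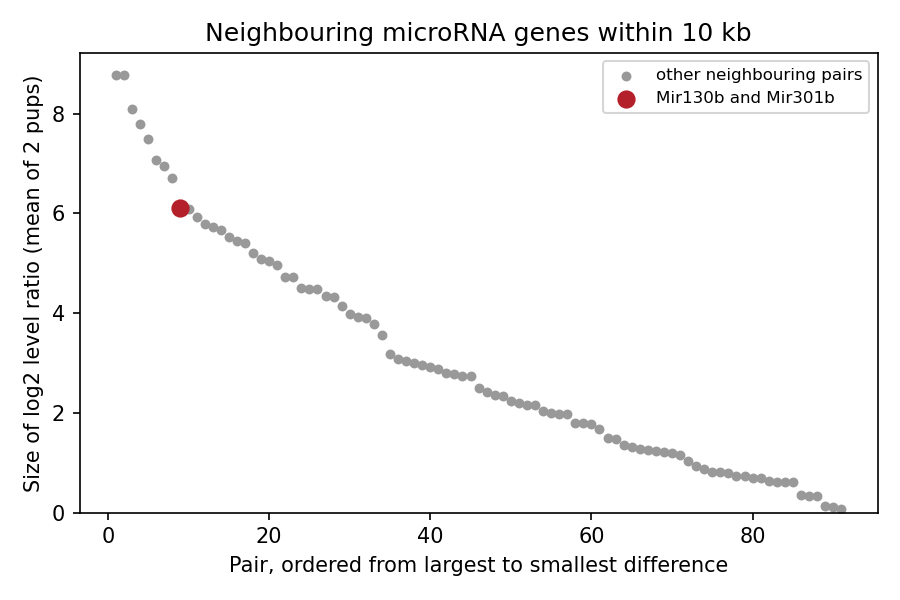
Size of the log2 difference in level between neighbouring microRNA genes (vertical axis, mean of 2 pups) for 91 pairs within 10 kb on the same strand, ordered from largest to smallest (horizontal axis). The red point, Mir130b with Mir301b, ranks 9, above the median difference of 5.65-fold.

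The genes nearest in level were taken by the Euclidean distance of log2(CPM + 1) over the 2 libraries. With only 2 libraries this measures level more than pattern. Mir30e, of the Mir30 family, lay closest to Mir130a, at 12839 and 10759 CPM, a distance of 0.03. Mir23b was the other, at 12525 and 12512 CPM and a distance of 0.22. Mir30e was above Mir130a in both pups, but the gap of their means was smaller than the spread between the pups. Both genes were lower in replicate 2, so that spread is not the error of their difference. With only 2 libraries their order was not resolved.

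Mir324 (distance 0.16) and Mir3071 (0.28) lay closest to Mir130b, with means of 1275 and 1210 CPM. Mir296 (0.02) and Mir467e (0.07) lay closest to Mir301, with means of 476 and 480 CPM. Mir301 was above Mir296 in both pups and above Mir467e in replicate 1 only. The 2 libraries did not resolve the order of these genes either. Mir193b (0.10) and Mir292 (0.15) lay closest to Mir301b, at means of 20.2 and 21.5 CPM. Mir301b was thus at the level of a gene of the pluripotency cluster, Mir292.

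Together the 4 genes held 1.46% of the microRNA counts in replicate 1 (1.44 to 1.47) and 1.25% in replicate 2 (1.24 to 1.26), a mean of 1.35% ± 0.146. Without Mir130a the other members held 0.200% and 0.176%. Most of the family share, and most of its difference between the pups, was thus carried by Mir130a.

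The Mir148 and Mir152 family was set beside the Mir130 and Mir301 genes because its seed is the same run of letters moved by 1 base. Runs were sought within the first 9 bases of each strand. The 7 letters CAGUGCA begin at base 1 of miR-130a-3p and at base 2 of miR-148a-3p, miR-148b-3p and miR-152-3p. Within the same 9 bases of miR-17-5p the shared run was 5 letters, AGUGC, starting at base 4 and at base 2 of miR-130a-3p. Capitals again mark bases 2 to 8.
miR-148a-3p: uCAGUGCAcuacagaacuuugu
miR-17-5p: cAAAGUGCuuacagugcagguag

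Mir148a had 3694 and 3306 CPM, Mir148b 485 and 431 CPM, and Mir152 196 and 202 CPM. The Mir130 and Mir301 family held 3.33 times the counts of Mir148a, Mir148b and Mir152 together in replicate 1 and 3.17 times in replicate 2, a mean of 3.25 ± 0.111. Mir130a alone was 3.32 ± 0.110 times the level of Mir148a. Both pups showed this order, and the steps exceeded their spread.

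The 8 genes listed with Mir17 (Mir17, Mir18, Mir18b, Mir20a, Mir20b, Mir93, Mir106a and Mir106b), known from proliferating cells, held 1.71 ± 0.0378 times the counts of the Mir130 and Mir301 family. Mir17 was at 10645 and 8501 CPM, and Mir130a was 1.18 and 1.26 times above it. Their levels over the 2 pups did not overlap, but the gap of the means was smaller than the sum of the SDs. Both genes were lower in replicate 2, so those SDs are not the error of their ratio, 1.22 ± 0.0578. Next in that list were Mir20a at 4677 and 3722 CPM and Mir93 at 4354 and 3534 CPM, both between the levels of Mir130a and Mir130b.

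Of the vascular list, Mir126a, an endothelial microRNA, was 5.85 ± 0.847 times the level of Mir130a. Mir139 stood at 5713 and 5528 CPM and Mir221 at 306 and 331 CPM. The 4 measured vascular genes together held 5.49 ± 0.751 times the counts of the Mir130 and Mir301 family. That ratio was 4.96 in replicate 1 and 6.02 in replicate 2.

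**Figure D3:**
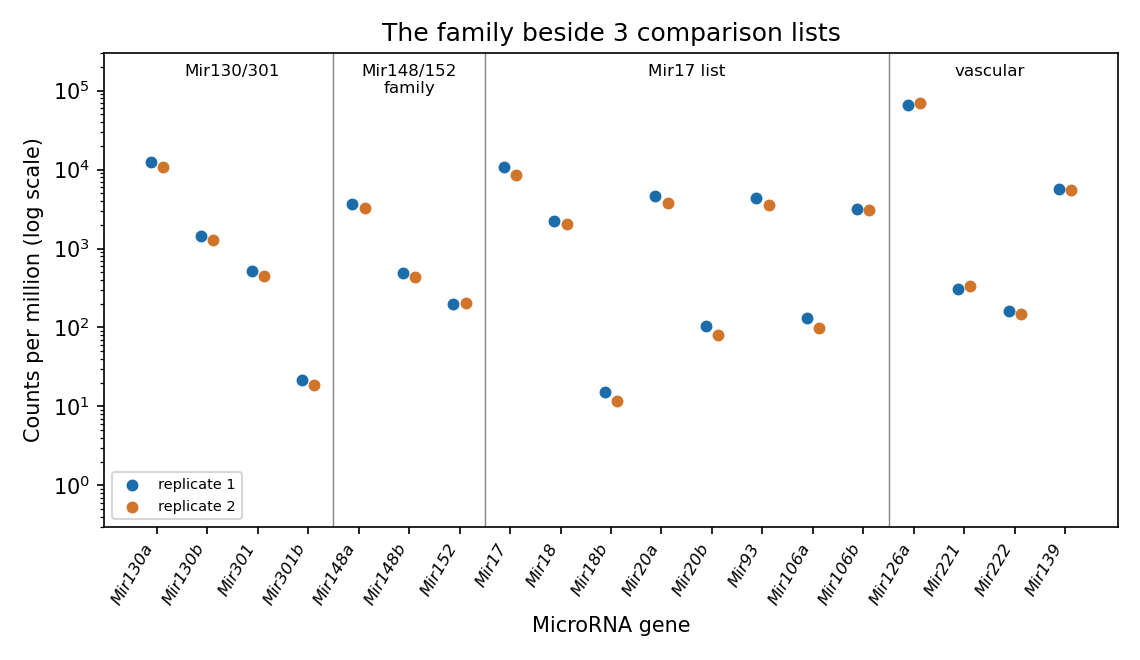
CPM (log axis) of each gene of the Mir130 and Mir301 family and of the Mir148 and Mir152, Mir17 and vascular lists (horizontal axis, in that order from left to right), with 1 point per pup. Mir130a lies above every other gene drawn except Mir126a, and Mir301b lies above only Mir18b.

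The last question was whether the family differed between the littermates. All 4 genes had lower values in replicate 2, and 3 of them, Mir130a, Mir130b and Mir301, passed an exact binomial test of the counts. The test was run over all 390 genes with 10 or more counts in total, with Benjamini-Hochberg adjustment at 0.05. It asks only whether 2 libraries differ beyond counting error, and it too takes each read as independent. It called 14.4% of the genes tested lower in replicate 2. Of the 221 genes that reached 100 counts in each library, where the test has more counts to work with, 24.9% were called lower. The 3 called family genes had at least 1763 counts in each library, so neither share is at their depth. The share at that depth was not computed.

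Mir130a fell by 0.23 on the log2 scale from replicate 1 to replicate 2 (exact 95% interval -0.25 to -0.21), with an adjusted p of 8.78e-124 in the exact binomial test. Mir130b fell by 0.16 (-0.22 to -0.11), with an adjusted p of 2.58e-08 in the same exact test. Mir301 fell by 0.22 (-0.31 to -0.12), with an adjusted p of 3.02e-05 in the exact test. Mir301b had a log2 ratio of -0.22 (-0.69 to 0.25) and an adjusted p of 0.553, so a difference of the size seen for the others was not detectable at its depth.

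The shifts were small and alike, between 10.8% for Mir130b and 14.6% for Mir130a. Their median log2 ratio was -0.22, beside 0.00 over the 390 genes tested. Of the same 221 genes, 112 had a ratio below 0 and 26 lay below Mir130a. An exact test of edgeR with a common negative binomial dispersion, which counts the spread between the pups as noise, gave another picture. In it 0 of the 4 family genes were called and each had an adjusted p of 1. That test called 2 of the 390 genes, 0.513%, and Mir206 (136 and 1004 CPM in replicates 1 and 2) was among them. In the same test 12 genes had an unadjusted p under 0.05. The biological coefficient of variation it used was 0.130, estimated from the same 2 libraries, so there is no replicate check of either test.

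**Figure D4:**
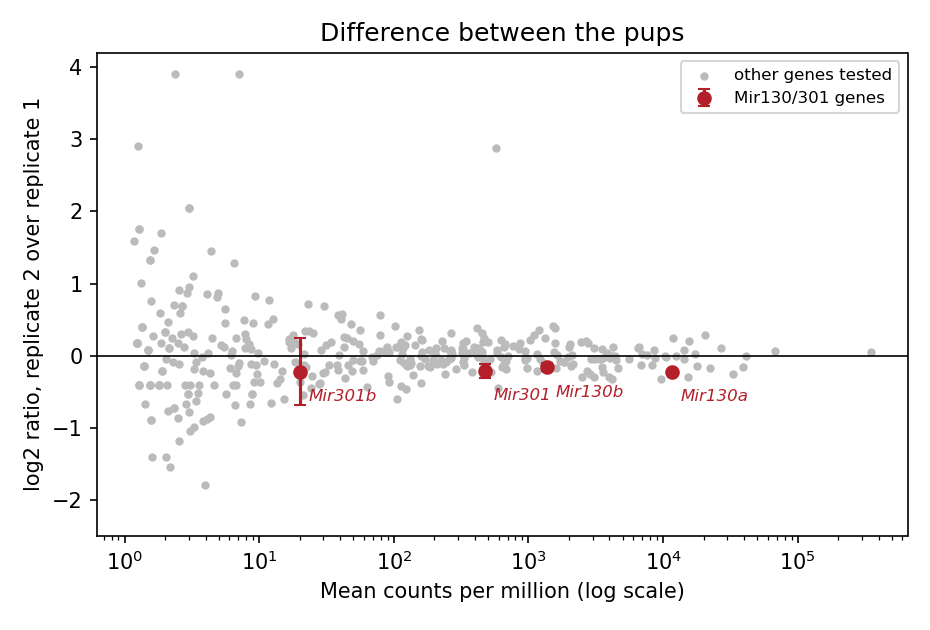
Ratio of replicate 2 to replicate 1 (log2, vertical axis) against mean CPM (log axis) for the 390 genes tested, with the 4 family genes in red and their exact 95% intervals. The family points lie between -0.23 and -0.16, with a wide interval for Mir301b that includes 0.

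Other lists moved between the pups as well. In the Mir148 and Mir152 family 2 of 3 genes were lower in replicate 2 by the exact binomial test, and in the Mir17 list 7 of 8, with median log2 ratios of -0.16 and -0.33. Of all 390 genes tested, 56 (14.4%) were called lower and 62 higher. Of the 221 genes with 100 or more counts in each library, 24.9% were called lower. Summed hepatocyte markers went from 357809 to 369463 CPM, with 5 of 5 genes detected. That sum follows Mir122, the 1 gene called higher in replicate 2 by the exact binomial test, while 3 were called lower and the median log2 ratio of the 5 was -0.13. The endothelial marker Mir126a went from 65978 to 69174 CPM. Erythroid markers went from 5309 to 5150 CPM (3 of 3 detected), with Mir144 higher by 0.38 and Mir451a lower, at a log2 ratio of -0.23, both called by the same test. Myeloid and lymphoid markers went from 9973 to 9092 CPM (4 detected of 5 listed, Mir142 not analysed here). By the same test Mir150 was called higher, at a log2 ratio of 0.44. Mir223 and Mir342 were called lower, at -0.13 and -0.21. Mesenchymal markers went from 14991 to 15784 CPM, with 4 of 5 detected. Mir143, at 13832 and 14617 CPM, held most of that sum and was the 1 gene called higher. The median log2 ratio of the 4 tested was 0.02. Muscle markers went from 136 to 1004 CPM, where Mir206 alone was detected and Mir1a-1, Mir133a-1 and Mir133a-2 were at 0. Those 3 genes each share 20 bases with another microRNA locus, so their 0 does not show that the microRNA was absent. The part of these cell types in the lower family values of replicate 2 was not tested.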

How the data were processed

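MicroRNA-seq of 2 newborn livers was used, with 1 library per pup. The deposited files hold raw read counts per microRNA gene without strand, on the gene strand and on the opposite strand, on mm10 with GENCODE M4 per the deposited text. Aligner and counting rules were not given in the sources used here. Column meanings were read from the values. Uniquely mapped reads not counted on the gene strand (333144 and 499994, reads on the opposite strand of a gene included) stayed out of library totals. Symbols and positions came from GENCODE M21, which named 1894 of 1973 entries, and the others held 0 counts. Sequences came from RefSeq (GRCm38.p6).

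Gene-strand counts were scaled to 1000000. Pups were compared with exact binomial tests in SciPy 1.17.1. These were tried on simulated counts with counting error only, a trial that does not cover spread between pups. edgeR 4.0.16 gave TMM factors, the dispersion and the negative binomial test, and DESeq2 1.42.0 gave size factors. ViennaRNA 2.7.2 folded hairpins. A quasi-likelihood test had no second group. The libraries differed by a chi-square of 49.9 per degree of freedom over 389, so they were not 1 library under 2 names.

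Named genes were the family, genes with its seed, microRNAs within 10 kb, the 2 nearest in level, all of the Mir148 and Mir152 list and up to 3 of the highest in the Mir17 and vascular lists. Mir18 is the annotation's symbol for Mir18a. Mir6368, Mir341, Mir1188 and Mir19a were named after their values or matches were seen. The members and lists were chosen with earlier results of these data known. Alternatives were counts without strand, other denominators and scalings, other count filters, each pup alone and the negative binomial test.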

Additional observations from a re-analysis of the deposited data

Results flagged for a closer look

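Reads on the strand opposite to Mir130a numbered 8 in replicate 1 and 26 in replicate 2, above the 3 counts that a count of 0 allows. They lie outside the main measurement, which used the gene strand. They made up 0.0186% (exact 95% interval 0.00804 to 0.0367) and 0.0534% (0.0349 to 0.0783) of the reads at the hairpin. Mir130b, Mir301 and Mir301b had 0 opposite-strand reads in both pups, which for Mir301b allows up to 4.86% and 4.30% of its reads by the exact 95% interval. Across all genes, opposite-strand counts were 166702 and 213909, beside 3422622 and 4538427 on the gene strand. They were 4.44% and 4.25% of uniquely mapped reads, a denominator that also holds reads on no gene. The origin of the reads at Mir130a was not tested.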

How the results depend on the processing

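Of 79 recomputed values, those of a single pup aside, 62 kept their call or moved by less than the spread between the pups. Another 14 moved, 3 lost their call and 0 reversed. Some of the 62 could hardly change, such as ratios within the family under counts without strand. The family share of 1.35% became 0.755% of all reads and 2.07% of counts without Mir122, as those denominators imply, and ran from 1.25% to 1.46% with 1 pup left out. The ratio of Mir130b to Mir301b ran from 67.5 to 70.3 with 1 pup left out. Genes called between the pups numbered 118 by the exact binomial test and 2 by the negative binomial test of edgeR, which counts the spread between the pups as noise. The 3 family calls were lost in that test, each with an adjusted p of 1. Under counts without strand, TMM, DESeq2 size factors, no Mir122 or either count filter, the log2 ratio stayed between -0.24 and -0.20 for Mir130a, -0.17 and -0.14 for Mir130b, and -0.22 and -0.19 for Mir301, and all 3 stayed called by the exact binomial test. TMM moved all log2 ratios by 0.01 and leaving out Mir122 by 0.03. With 74 and 84 counts, depth limits the comparison of Mir301b most.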
